A study of Mus musculus with 2 samples.

Results

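Keratins and keratin-associated proteins were compared between 2 pools of teratoma RNA. The genes were taken by symbol, as every gene with its own probe set on the array whose current symbol is that of a numbered keratin (Krt) or a keratin-associated protein (Krtap). This gave 66 genes, 40 keratins and 26 keratin-associated proteins, of 12393 genes with such a probe set. Teratomas are tumours of mixed differentiated tissue that pluripotent cells form after transplantation. The B6 ES pool held RNA of 2 tumours formed by embryonic stem (ES) cells of the strain C57BL/6 (B6). The EiPS pool held RNA of 2 regressing tumours formed by EiPS cells, which are induced pluripotent stem cells (named 1E12 iPS in the source label) also of strain B6. All tumours had grown under the skin of male B6 mice and were removed at week 6, so hosts, strain and time were shared. Each pool was measured on 1 Affymetrix array. No difference given here therefore has a replicate check, none was tested, and values compare these 2 pools rather than the cell lines.

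Keratins are the intermediate filament proteins of epithelial cells. A type I and a type II keratin assemble as a pair, and each kind of epithelium makes its own pairs, so that keratins serve as a record of which epithelia a tissue holds. Krt8 and Krt18 fill simple epithelia, Krt5 and Krt14 the dividing basal layer of stratified epithelia, and Krt1 and Krt10 the epidermal cells above it. Krt6a, Krt6b, Krt16 and Krt17 are made in wounded or rapidly turning over stratified epithelium. The hair shaft is built from hair keratins embedded in keratin-associated proteins. In teratomas keratins mark skin-like, gut-like and glandular areas.

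The promoters of 3 keratins are shown because they belong to members on which the results below turn and differ in the elements they hold. Krt20 and Krt7 had the largest differences among simple epithelial keratins, and Krt14 is the type I keratin of the basal layer. Each line gives the 250 bases before the annotated start, 5′ to 3′ on the gene's strand, from RefSeq (build GRCm38.p6). Capitals mark the letters TATAAA (called the TATA box, on the sense strand) and GGGCGG (called the GC box, on both strands).
Krt20 (chr11:99438154-99438403, minus strand): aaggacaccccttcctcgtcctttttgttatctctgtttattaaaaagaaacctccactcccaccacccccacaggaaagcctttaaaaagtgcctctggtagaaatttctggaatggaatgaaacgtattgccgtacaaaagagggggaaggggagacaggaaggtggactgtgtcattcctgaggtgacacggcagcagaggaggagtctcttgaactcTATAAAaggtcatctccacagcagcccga
Krt7 (chr15:101412153-101412402, plus strand): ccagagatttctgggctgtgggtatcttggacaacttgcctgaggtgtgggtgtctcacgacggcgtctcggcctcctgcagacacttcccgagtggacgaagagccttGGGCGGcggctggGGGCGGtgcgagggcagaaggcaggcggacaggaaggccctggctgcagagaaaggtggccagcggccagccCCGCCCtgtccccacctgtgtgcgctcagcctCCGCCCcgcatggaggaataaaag
Krt14 (chr11:100206031-100206280, minus strand): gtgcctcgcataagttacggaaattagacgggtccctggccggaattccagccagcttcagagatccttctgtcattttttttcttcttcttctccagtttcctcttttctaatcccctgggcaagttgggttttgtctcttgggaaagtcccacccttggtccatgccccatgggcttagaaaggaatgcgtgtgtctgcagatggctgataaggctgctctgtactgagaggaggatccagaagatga
The window of Krt20 holds 1 TATA box, which begins 29 bases before the start. The Krt7 window holds 4 GC boxes, at 141, 128, 56 and 24 bases, and no TATAAA. The Krt14 window holds neither.

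The values are MAS5 signals, relative amounts in arbitrary units. A floor of 25.8, the level under which 90% of the signals of olfactory, vomeronasal and taste receptor probe sets lay, was taken as the lower limit of measurement. A gene is called measured when its signal reached the floor on 1 array or more, and a fold against a signal under the floor is a bound, written "at least". Differences are log2 signals of the EiPS pool less those of the B6 ES pool, for the brightest probe set of each gene. The median signal over all 22690 probe sets was 179 in the B6 ES and 196 in the EiPS pool, and the median difference over the 10962 genes measured was 0.07. The spread between probe sets of the same gene, an SD of 0.40 over 3805 genes, was the nearest gauge of measurement noise. It was 0.54 at mean signals under 100, 0.34 from 100 to 1000 and 0.19 above, and leaves out variation between tumours and arrays.

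Of the 40 keratins, 29 were measured, and 25 of these had a higher signal in the EiPS pool. Of the 25, 4 (Krt16, Krt71, Krt75 and Krt84) passed the floor in the EiPS pool only, so they could only be higher. The median difference was 0.44 over the keratins measured, and also 0.44 over those above the floor on both arrays. At least 2-fold higher were 4 keratins, Krt20, Krt6b, Krt83 and Krt17, and none was at least 2-fold lower. Among all genes measured, 5.79% were higher by that much, 3.05% were lower by that much, 56.2% were higher by any amount and 43.8% lower. The keratins thus shared a direction more than a large size: 21 of the 25 higher ones differed by less than 2-fold, with bounds taken at their value. In bulk RNA, more cells of a type and more RNA per cell cannot be told apart. Of the 26 keratin-associated proteins, 22 were under the floor on both arrays.

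**Figure D1:**
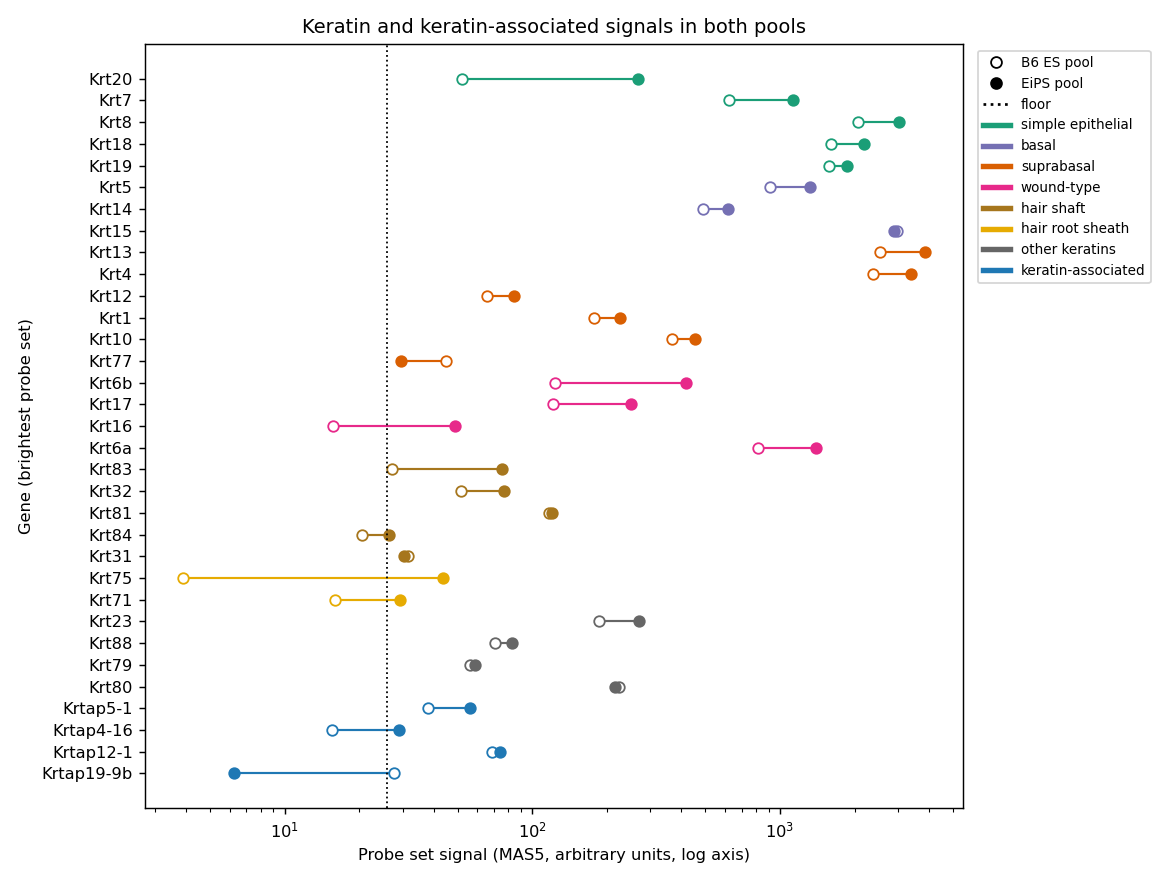
Signals of the 33 keratin and keratin-associated genes measured, in the B6 ES pool (open) and the EiPS pool (filled), on a log axis, with the floor of 25.8 dotted. Most lines run to the right, and Krt20 and Krt6b have the longest lines among genes above the floor in both pools.

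The 5 simple epithelial keratins were all higher in the EiPS pool, and their median difference was 0.56. Krt20, a keratin of the differentiated cells of the intestinal lining and of urothelium, had signals of 51.9 in the B6 ES and 266 in the EiPS pool, 5.13-fold higher. This was the largest difference among keratins above the floor on both arrays, and 0.465% of all genes measured had a larger one. On the log2 scale it was 2.36, and 1.41 with a floor of 100 and 1.51 with log2(signal + 64). Krt7, found in ducts, airway and urothelium, had signals of 622 and 1124, 1.81-fold higher. The pair Krt8 and Krt18 moved by like amounts, with signals of 2060 and 3029 for Krt8 (1.47-fold) and 1614 and 2193 for Krt18 (1.36-fold). Krt19, a type I keratin of ductal and glandular epithelium, differed least, with signals of 1576 and 1871 (1.19-fold). Krt20 thus stood apart from the other simple keratins, whose differences ran from 0.25 to 0.85 on the log2 scale.

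Most markers of intestine had higher signals beside Krt20. Of 11 such genes measured, 8 were higher in the EiPS pool, 7 of them by 2-fold or more, and the median difference was 1.16. Their summed signal was 4060 in the B6 ES and 7433 in the EiPS pool, and all 11 were above the floor on both arrays. Most of that gap in the sum came from Tff3, and the next largest part from Lgals4 (861 and 1953). Tff3, a secreted peptide of goblet cells, was 6.95-fold higher (331 and 2299), Phgr1 5.19-fold (44.4 and 230), Clca1, also of goblet cells, 4.20-fold (31.9 and 134), and Guca2a, which encodes guanylin, 4.12-fold (101 and 418). Fabp2, a fatty acid carrier of enterocytes, was 2.73-fold lower (784 and 287). Agr2 and Fabp1 were nearly equal, at -0.09 and -0.07 on the log2 scale, with another probe set of Agr2 at 1.08. Markers common to most epithelia differed less, with a median of 0.13 over 13 genes and summed signals of 8517 and 10762. The largest differences among them were those of Prom1 (0.87 on the log2 scale), the claudins Cldn7 (0.70) and Cldn3 (0.59), which are tight junction proteins, and the protease St14 (0.56). Epcam, an adhesion protein of most epithelia, differed by 0.42 on the log2 scale and E-cadherin (Cdh1), the main adherens junction protein of epithelia, by -0.02. Of 5 mesothelium markers on the array, a cell type that also makes Krt8, Krt18 and Krt19, 4 were measured, 2 higher and 2 lower in the EiPS pool. Wt1 (10.1 and 31.0) and Bnc1 (20.5 and 30.1) were higher, by at least 0.26 and 0.22 on the log2 scale. Both passed the floor in the EiPS pool only, so they could only be higher. The 2 above the floor on both arrays, Msln (471 and 373) and Gpm6a, were lower, at a median of -0.42. Upk3b was under the floor on both arrays. The summed signal of the 5 was 7921 and 5630, nearly all of it from Gpm6a (7406 and 5194), which is also a neuronal gene. The part of any of these tissues in the keratin differences was not tested.

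Basal keratins differed by less than 2-fold. Krt5 had signals of 915 and 1322 (1.45-fold higher in the EiPS pool). Its partner Krt14 had signals of 487 and 616 (1.27-fold), and its 3 probe sets ranged from 0.30 to 0.64. Krt15, a basal keratin also used to mark hair follicle stem cells, had nearly equal signals of 2971 and 2896. The basal median of 0.34 was below the simple epithelial one. The difference of Krt5, 0.53 on the log2 scale, was more than 2 SDs of probe sets of the same gene at its signal level (SD 0.19 at mean signals above 1000). Its mean signal was close to 1000, however, and against the SD of 0.34 from 100 to 1000 it was under 2 SDs. The differences of Krt14 and Krt15 were within 1 SD at their levels. Trp63, the transcription factor of basal epithelial cells, was lower in the EiPS pool by 0.34 on the log2 scale, with its other probe set at -1.17.

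Suprabasal keratins also differed little, in the epidermal and the mucosal pair alike. Krt1 had signals of 178 and 226 (1.27-fold higher in the EiPS pool) and Krt10 of 366 and 453 (1.24-fold). The mucosal pair was somewhat higher: Krt4 had signals of 2385 and 3380 (1.42-fold). Its partner Krt13, of oral and oesophageal lining, had signals of 2537 and 3866 (1.52-fold). Krt77, another epidermal type II keratin, went the other way, with signals of 44.7 and 29.6, 1.51-fold lower and the largest difference below 0 of any keratin measured. Krt12, the keratin of corneal epithelium, had probe sets of opposite direction: the brighter had signals of 65.7 and 84.6 and the other of 49.1 and 33.4, so no direction is given for it. Krt2, of the upper epidermis, was under the floor on both arrays, at 9.64 and 11.2.

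Genes of the cornified envelope, the protein shell that epidermal cells build as they leave the suprabasal layers, differed much more than Krt1 and Krt10. All 16 measured were higher in the EiPS pool, 13 of them by 2-fold or more. Their median was 1.96, against 0.35 for the 6 suprabasal keratins measured. With log2(signal + 64), where no floor applies, the medians were 1.30 over 21 genes and 0.26 over 7. Of the 16, 12 were above the floor on both arrays, at the same median of 1.96. The other 4 passed it in the EiPS pool only, so they could only be higher. The list was drawn up with earlier results of these data known. It includes Lce3a and Lce1f, which earlier work on these tumours had picked. Tgm1, the transglutaminase that cross-links the envelope, was 7.30-fold higher (40.7 and 297) and Rptn (repetin) 6.33-fold higher (36.3 and 230). The B6 ES signals of both were close to the floor. Crct1, of the epidermal differentiation gene complex, was 4.36-fold higher (202 and 881). Lce3a had signals of 8.26 and 328, a difference of at least 12.7-fold. Ivl, Flg, Hrnr, Casp14 and Klk7, also on the list, were under the floor on both arrays. The difference between the lists was not tested, and each rests on the same 2 arrays.

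The wound-type keratins had the highest median of the keratin groups, 0.98, and all 4 were higher in the EiPS pool. Krt6b had signals of 123 and 418, 3.39-fold higher. Krt6a, its neighbour in the genome, had signals of 814 and 1402 by its brightest probe set (1.72-fold), and of 374 and 774 (2.07-fold) and 342 and 688 (2.01-fold) by the others. Krt17 had signals of 122 and 249 (2.05-fold), while its other probe set was under the floor on both arrays. Krt16 was under the floor in the B6 ES pool, at 15.7, and had 48.7 in the other pool, a difference of at least 1.89-fold. Krt6a and Krt6b are close paralogs, and probes of either may bind RNA of the other, so their values may not be independent. The 2-fold call of Krt17 ended after quantile normalization (0.90 on the log2 scale), equal medians (0.91) and loess scaling (0.95). It also ended with log2(signal + 64) (0.76) and with its probe sets averaged (0.52). In that average the probe set under the floor was set to the floor on both arrays, so it added no difference.

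**Figure D2:**
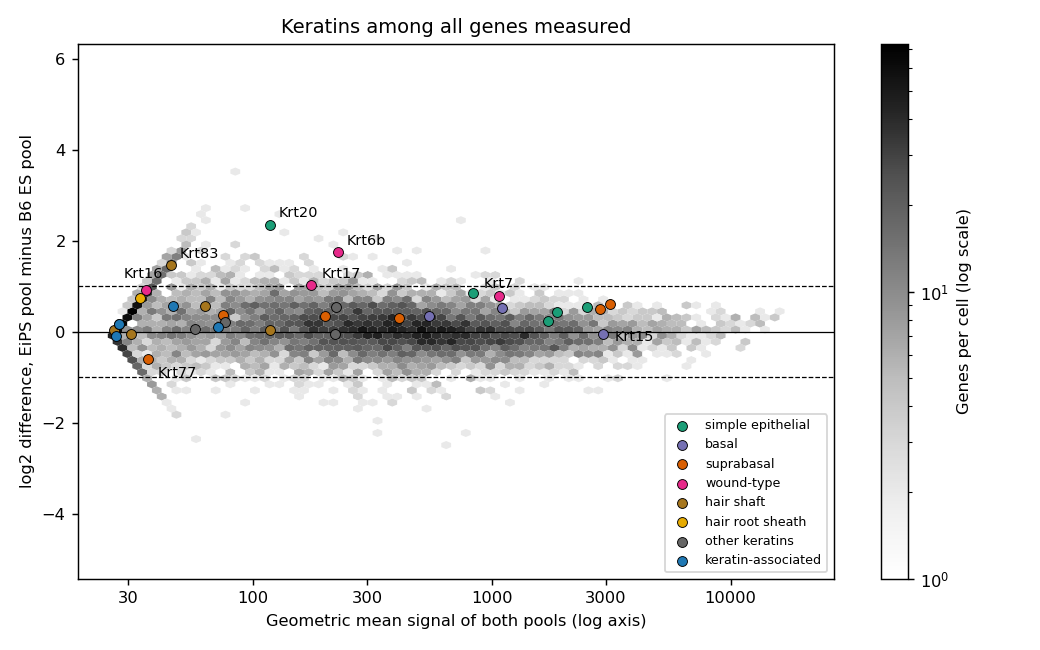
log2 difference against the geometric mean signal of both pools, with all 10962 genes measured in grey and keratin and keratin-associated genes in colour; dashed lines mark 2-fold. Keratins lie mostly above 0 at all signal levels, with Krt20 and Krt6b well above the 2-fold line and Krt77 lowest.

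The direction of the keratins did not rest on dim probe sets. At mean signals of 100 or more, 16 of 18 keratins were higher in the EiPS pool, against 54.0% of the 8649 genes at that level. The median keratin difference was 0.44 from 100 to 1000 (10 keratins) and 0.52 above 1000 (8 keratins), where the medians of all genes were 0.07 and -0.03. Below a mean signal of 100, the 11 keratins had a median of 0.22, the same as that of the 2313 genes at that level. Bright keratins thus differed from the bulk of genes at their level more than dim ones did.

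Type I and type II partners were compared pair by pair. Of 8 pairs listed, both partners were measured in 6, and in all 6 both were higher in the EiPS pool, where 86.2% of the keratins measured were higher. The type II difference exceeded the type I one by 0.11 for Krt8 and Krt18, 0.19 for Krt5 and Krt14 and 0.04 for Krt1 and Krt10, and was smaller by 0.10 for Krt4 and Krt13. These gaps are close to or within 1 SD of probe sets of the same gene at like signals. The widest gap among pairs above the floor on both arrays was 0.72, for Krt6b over Krt17. The difference of Krt16 is a bound, so that of Krt6a was smaller by 0.13 or more: with no floor, Krt16 differed by 1.64 and Krt6a by 0.78. Over all keratins, 11 of 13 type I and 14 of 16 type II keratins measured were higher, with medians of 0.44 and 0.42. Of these, 1 type I and 3 type II keratins passed the floor in the EiPS pool only.

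Hair keratins were largely unmeasurable in both pools. Of 12 hair shaft keratins on the array, 7 were under the floor on both arrays (Krt33a, Krt33b, Krt34, Krt35, Krt36, Krt82 and Krt86), with signals from 1.95 to 14.3 in the B6 ES and from 1.70 to 24.7 in the EiPS pool. Of the 5 measured, Krt83 had signals of 27.1 and 75.4 (2.78-fold higher in the EiPS pool) and Krt32 of 51.6 and 77.1 (1.49-fold). Krt81 had 116 and 120 and Krt31 had 31.5 and 30.4, nearly equal. Krt84 had 20.5, under the floor, and 26.5, just above it. The fold of Krt83 rests on a B6 ES signal close to the floor. On the log2 scale it was 1.47, but 0.62 with a higher floor (the 98th percentile of the receptor signals) and 0.61 with log2(signal + 64). Krt81 was the only hair keratin with a signal of 100 or more on either array.

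Root sheath keratins and keratin-associated proteins were at the same low level. Krt75, of the companion layer of the hair follicle, had signals of 3.87 and 43.5, a difference of at least 1.68-fold. Krt71, of the inner root sheath, had 16.0 and 29.1, at least 1.13-fold higher. Krt25, Krt27 and Krt72, also of the inner root sheath, were under the floor on both arrays. Of the 4 keratin-associated genes measured, Krtap12-1 had signals of 68.5 and 74.0, Krtap4-16 of 15.5 and 29.0, and Krtap19-9b of 27.5 and 6.22. Krtap5-1 had 37.8 and 56.3 by one probe set and 38.5 and 11.6 by the other, so no direction is given. The remaining 22 ran from 0.799 to 22.9 in the B6 ES and from 0.380 to 22.5 in the EiPS pool. All genes of the array were under the floor on both arrays in 11.5% of cases.

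Hoxc13, the homeobox factor that drives hair keratin genes, was also under the floor on both arrays (2.41 and 2.86), as were Shh, Edar and Fgf5. Foxn1, which directs hair shaft differentiation, had 1.93 and 28.1. Among 13 hair follicle regulators measured, 9 were higher and 4 lower in the EiPS pool, at a median of 0.28. Of the 9, 2 passed the floor in the EiPS pool only, Foxn1 among them. Sostdc1, an inhibitor of BMP and Wnt signalling, was 4.58-fold lower (1280 and 279), and Vdr, the vitamin D receptor, 2.82-fold higher (35.2 and 99.5). Neither is particular to hair. Tchh (trichohyalin), a structural protein of the inner root sheath, had 32.6 and 65.1, and the homeobox gene Msx2 differed by 0.59 on the log2 scale.

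**Figure D3:**
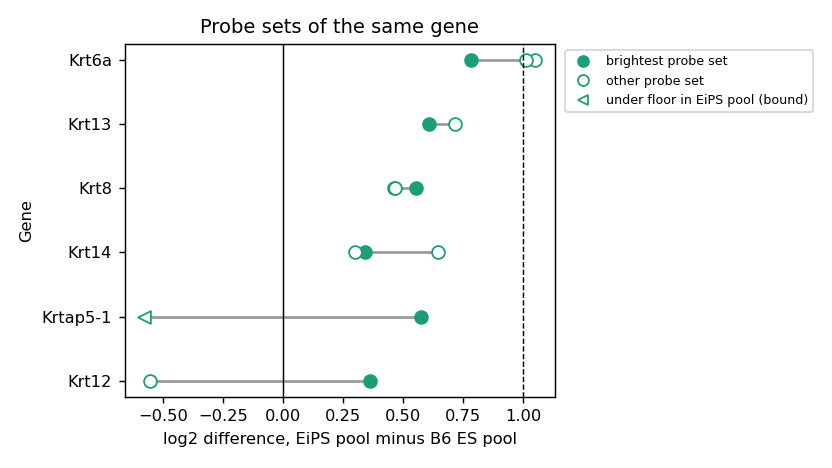
log2 differences of the 6 genes with several probe sets measured, with the brightest filled. The probe sets of Krt6a, Krt13, Krt8 and Krt14 all lie above 0, whereas those of Krt12 and Krtap5-1 lie on both sides.

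Keratins outside these groups had small differences. Krt23, a type I keratin, had signals of 185 and 270 (1.46-fold higher in the EiPS pool). Krt80, a type II keratin, had 223 and 216, Krt79, of the hair canal and sebaceous duct, 56.1 and 58.7, and Krt88 70.9 and 82.5. All 3 differed by less than 0.25 on the log2 scale.

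Most genes that anchor keratin filaments had higher signals with the keratins. Of 13 desmosome and linker genes measured, 11 were higher in the EiPS pool, the median was 0.61 and 1 reached 2-fold. This was Dsp (desmoplakin), which ties keratin filaments to desmosomes, with signals of 1508 and 3249 (2.15-fold) and 0.55 by its other probe set. The plakophilins Pkp3 and Pkp2, desmosomal plaque proteins, and Evpl (envoplakin), a linker of the cornified envelope, were 1.89-fold, 1.85-fold and 1.88-fold higher. Plec (plectin), a linker of many filament types, was lower by 0.24 and Jup (plakoglobin), which also serves adherens junctions, by 0.08. Dsg2 and Dst, counted among the 11, had probe sets of both directions, from -0.58 to 0.62 and from -0.30 to 0.41. With probe sets averaged, the median of the list was 0.46. Dsc1 and Dsc3, desmosomal cadherins of stratified epithelium, were under the floor on both arrays.

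Other intermediate filament genes had no shared direction: 6 of 13 were higher and 7 lower, with a median of -0.12. Nefl, a neurofilament, was 2.77-fold lower (3987 and 1442) and Des, the filament of muscle, 2.54-fold lower (4038 and 1587). Nefm, another neurofilament, was 1.97-fold lower (1112 and 565). Prph (peripherin), of peripheral neurons, was 2.17-fold higher (48.4 and 105). Vim (vimentin), of mesenchymal cells, was 1.37-fold higher (10212 and 14007). By their brightest probe sets, markers of skeletal muscle and neurons were lower in the EiPS pool in all 12 and all 10 genes. Their summed signals were 80014 and 36638 for muscle and 23705 and 10838 for neurons. The neuronal Map2, Elavl3 and Elavl4 also had probe sets above 0, up to 0.67, 0.12 and 0.12 on the log2 scale. The muscle genes that differed most were Myh4 (21.8-fold lower), Mb (6.02-fold), Myh1 (5.21-fold) and Ckm (3.69-fold), and the neuronal ones, beside Nefl, were Slc17a6 (4.48-fold lower), Stmn2 (2.66-fold) and Gap43 (2.36-fold). Of 10 fibroblast markers 8 were higher and 2 lower, with a median of 0.26 and summed signals of 39876 and 48451. Fn1 differed most, with signals of 1560 and 3195 (2.05-fold higher), followed by Lum at 0.93, Pdgfrb at 0.89 and Fap at 0.77 on the log2 scale. Of 11 leukocyte markers 7 were higher and 4 lower (Cd3g, Itgam, Cd14 and Csf1r), with a median of 0.32 and summed signals of 9386 and 14677. Most of that gap in the sum came from Lyz2 (4103 and 7924, 1.93-fold), and Cd68 (2.09-fold), Tyrobp (1.85-fold) and Laptm5 (1.58-fold) were the others that differed most. Signals on an array are relative, and the part of these shifts in the keratin values was not tested.

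**Figure D4:**
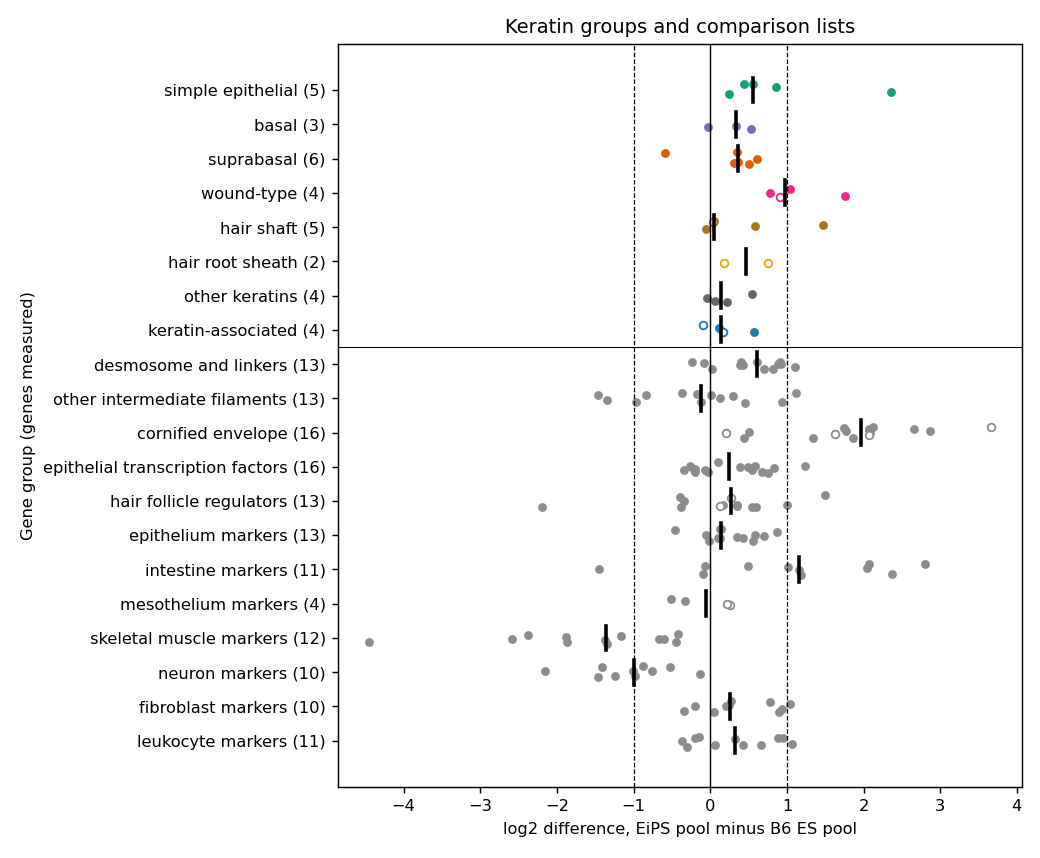
log2 differences of the genes measured in each keratin group (coloured) and comparison list (grey), with bars at the medians, open points for bounds and dashed lines at 2-fold. Wound-type keratins have the highest keratin median (0.98), below those of the cornified envelope (1.96) and intestine (1.16) lists.

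Transcription factors of epithelia were divided. Of 16 measured, 9 were higher and 7 lower in the EiPS pool, at a median of 0.24. Hnf4a, a factor of gut and liver epithelium, had signals of 94.1 and 221 (2.35-fold higher), but its 4 probe sets ranged from -0.53 to 1.23. Foxa2, of endoderm-derived epithelium, was 1.77-fold higher (118 and 210), and Gata3, of skin and other epithelia, 1.59-fold (40.8 and 64.9). Klf4, a factor of differentiating epidermis and gut, was 1.69-fold higher (599 and 1010), and Cdx2, which sets intestinal identity, 1.41-fold (70.4 and 99.1). Grhl2, a regulator of epithelial junction genes, was lower by 0.21 with probe sets of both directions.

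Promoter sequence, which the choice of genes did not use, was matched for 50 of the 66 genes. TATAAA was present in the 250 bases before the start in 18 of 25 keratin-associated genes, 72.0%, against 8.94% of 27025 genes with a promoter. Its match nearest the start began at a median of 31 bases before it, ranging from 29 to 63. A promoter was matched for 17 of the 29 keratins measured, but not for the wound-type Krt6a, Krt6b, Krt16 and Krt17. Of the 17, 6 held TATAAA (Krt10, Krt12, Krt20, Krt31, Krt32 and Krt71), all with a match 26 to 40 bases before the start. The GC box GGGCGG was present in 2 of the 17, Krt7 and Krt75, and in 35.4% of all genes. The AP-1 motif TGANTCA, searched on both strands, was in Krt13 among the 17 and in 7.82% of all genes. These are matches of letters and show no binding. Genes with TATAAA include Krt20, shown above, with the largest keratin difference above the floor, and Krt31, with none to speak of (-0.05).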

How the data were processed

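Pooled RNA of 2 teratomas a group, from 5 µg of total RNA, was hybridised to 1 Affymetrix mouse array a group. Per the submitters' processing notes, the deposited intensity values were made by the authors with Affymetrix Expression Console and MAS5, with versions not given in the sources used here. Both arrays had a 2% trimmed mean signal of 500.2, the authors' scaling, and none was added. The number of arrays limits the precision.

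Of 22690 probe sets, 20380 carried 1 gene symbol, 691 several and 1555 none, and 64 were controls. Symbols were updated by Entrez identifier (20351 matched, 29 kept) with RefSeq GRCm38.p6. A gene took its brightest probe set. The floor was the 90th percentile of 71 silent receptor probe sets. Genes under it on both arrays (1431) were not compared. No test was run.

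The members, groups and lists were chosen with earlier results of these data known. Every member was named. Of each comparison list up to 4 genes with the largest differences were to be named, with the largest opposite one where both directions reached 2-fold. Others were named where a keratin result turns on them or where their probe sets disagreed, after their values were seen. Alternatives were other floors, log2(signal + 64), 3 other scalings (floor recomputed), and other probe set rules. The procedure was tested on simulated data, with changes above 2-fold put on genes with B6 ES signals well above the floor. Its noise was smaller than the spread between probe sets of the same gene. It did not cover changes under 2-fold or genes dim in both pools. Python 3.11.15, pandas 2.3.3 and statsmodels 0.14.6 were used.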

Additional observations from a re-analysis of the deposited data

Results flagged for a closer look

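A probe set that the annotation assigns to both Krt17 and Krt14, and which therefore entered no comparison, had a signal of 31.6 in the EiPS pool, above the floor, and of 16.7 in the B6 ES pool, under it. It was listed because it lies outside the genes compared and its signal exceeds that of the other pool.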

How the results depend on the processing

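The keratin median stayed above 0 under all 11 alternatives, from 0.25 to 0.52. So did the simple epithelial (0.43 to 0.59), basal (0.21 to 0.43), suprabasal (0.23 to 0.42) and wound-type (0.75 to 1.34) medians. The hair shaft median ran from 0.0041 to 0.58. With equal medians (0.0041) and loess scaling (0.014) it was the value of Krt84. That gene passed the floor in the EiPS pool only, so it could only be higher. The root sheath median had a value in 8 of the 11 alternatives. Where a floor was kept it could only be above 0, because the root sheath keratins measured passed the floor in the EiPS pool only. Without a floor it was 0.86, and 0.22 with log2(signal + 64). With the higher floor (98th percentile of the receptors), a floor of 100 and genes above the floor on both arrays no root sheath keratin was left. A floor of 100 and keeping only genes above the floor on both arrays were chosen after seeing the data. Equal medians moved the median of all genes from 0.07 to -0.06, and the keratin median then lay 0.37 above it, against 0.38 with the deposited scaling. The share of higher genes among those at least 2-fold different was 65.5%, and 53.01% after quantile normalization and 52.5% with equal medians. The number of keratins at least 2-fold higher was 4. It was 8 with no floor, where 3 were at least 2-fold lower, over all 40 keratins, and 2 with log2(signal + 64). Krt20 and Krt6b were at least 2-fold higher under every alternative, at their lowest 2.66-fold and 2.57-fold. The hair shaft median of 0.04 was 0.58 with the higher floor, over 3 genes. The root sheath median of 0.46 was 0.86 with no floor, over 5 genes. The keratin-associated median of 0.14 turned to -0.14 after quantile normalization, over 3 genes. Among comparison lists, the mesothelium median turned to 0.11 with the lower floor (75th percentile), the epithelial transcription factor median to -0.021 with equal medians, the other intermediate filament median to 0.0077 with probe sets averaged, and the hair follicle regulator median to -0.16 with a floor of 100, over 6 genes. A floor sets both which genes count and the value of a signal under it: with no floor Krt16 and Krt75, measured already, passed 2-fold (1.64 and 3.49 on the log2 scale). The cornified envelope median of 1.96 was 1.30 with log2(signal + 64), over 21 genes. The cause of the other changes was not tested. No paired analysis was possible because each group has 1 array. Signals under the floor limit what can be said of hair keratins and keratin-associated proteins.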

Other observations

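Under the floor, where signals have no order, 19 of the 33 keratin and keratin-associated genes not measured had the higher value in the EiPS pool and 14 in the B6 ES pool. The remaining probe sets that name several genes, with at least 1 keratin-associated protein among them, were 4 in number and all under the floor on both arrays. The companion layer keratin Krt75, at 3.87 in the B6 ES pool, differed by 3.49 on the log2 scale with no floor, a value that rests on that low signal.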
